A study of Mus musculus with 24 samples.

Results

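The genes carried by the mouse mitochondrial chromosome were taken by name: every gene whose GENCODE symbol starts with mt-, which gave 37 of the 55141 counted genes that GENCODE M21 names. They were 13 mRNA genes, 2 rRNA genes and 22 tRNA genes. Their counts were compared across 24 tibialis anterior (TA) muscles, from 4 groups of 6 male C57BL/6J mice aged 5 to 7 weeks. PBMT-treated mice received 830 nm light at 25 mW/cm2 for 20 min, a fluence of 30 J/cm2, and control mice were shaved and anesthetized for the same 20 min without light. Muscle from sedentary mice was collected 24 h later, and fatigued mice ran on a treadmill to exhaustion at that time, with muscle taken directly afterwards. The libraries were made from mRNA and sequenced as 150-base paired reads.

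Mitochondrial DNA is transcribed from both strands into long precursors, which are separated at the tRNAs into single RNAs. Its mRNAs all encode subunits of the respiratory chain and ATP synthase, and its rRNAs form the core of the mitochondrial ribosome that translates them. Skeletal muscle depends on these complexes for sustained contraction, and most of their subunits come from nuclear genes.

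Total counts ran from 43271093 to 46904076 in sedentary control muscle and from 46327516 to 52775844 in sedentary PBMT-treated muscle. Fatigued muscle was sequenced more deeply, with 56792327 to 68726155 counts in control and 53122528 to 68566029 in PBMT-treated mice. Sedentary and fatigued mice were sequenced as separate projects, so exercise state and project cannot be told apart in any comparison between them. Levels are given as CPM, which are counts brought to a common library total, with TMM scaling over all 24 mice. A gene was called higher or lower where its adjusted p from the edgeR quasi-likelihood test, adjusted by Benjamini-Hochberg over all genes tested, was under 0.05.

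All 8 skeletal muscle fiber markers had counts in every mouse, and Myh4, the myosin of the fastest fibers, was the most abundant at 37924 CPM. Their summed level was 102350.5 ± 13633 CPM (SD, n = 6) in sedentary control and 107563 ± 8394 CPM in sedentary PBMT-treated mice. It was 138252 ± 11073 CPM in fatigued control and 136517 ± 12137 CPM in fatigued PBMT-treated mice. Myh4, Tnnt3, Acta1 and Ckm were called higher in fatigued than in sedentary controls, where 9.1% of 15108 genes were. Myh4, Tnnt3 and Acta1 were also called higher in fatigued than in sedentary PBMT-treated mice, where 14.1% of genes were. By value 6 of the 8 were higher and 2 lower in each comparison. With the 5 sedentary controls other than replicate 4 the same 4 genes were called higher, where 12% of 15273 genes were. Mb, which encodes myoglobin, was then called lower (log2 fold change -0.46, adjusted p = 0.0350), where 12.7% of genes were. Ckm lost its call without any 1 of 8 mice (adjusted p = 0.0549 to 0.0780). With a correction for GC content, described below, Acta1 lost its call in controls (adjusted p = 0.0966, or 0.180 with the other 5) and in PBMT-treated mice (0.509), Ckm in controls (0.0736) and Tnnt3 in PBMT-treated mice (0.290). Blood was present at a low level, with 5 of 5 erythrocyte markers in every mouse, led by Hbb-bs, and group means of 102, 98.6, 86.4 and 88.0 CPM in the same order of groups. Adipocyte markers summed to 224, 220.1, 231 and 234 CPM, mostly Fabp4, and the brown-fat marker Ucp1 was near 0. Endothelial markers, led by Cdh5, had means of 199.6, 213, 233 and 246 CPM.

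Mesenchymal markers, with Col1a1 the most abundant, had group means of 484, 428, 751 and 909.5 CPM and medians of 471, 376, 767 and 706 CPM. Fatigued PBMT-treated replicate 5 stood apart at 2016 CPM, against 494 to 922 CPM in the rest of its group. Of these markers 3 of 3 (Pdgfra, Col1a1 and Dcn) were called higher in fatigued than in sedentary PBMT-treated mice, where 14.1% of 15108 genes were. Col1a1 alone was called higher in fatigued controls than in the other 5 sedentary controls (log2 fold change 1.25, adjusted p = 0.0461). Dcn lost the call in PBMT-treated mice without any 1 of 5 mice (adjusted p = 0.0522 to 0.162). The myeloid markers, led by Lyz2, had means of 62.1, 42.1, 55.7 and 57.6 CPM. Among them S100a8, a neutrophil gene, was lower in fatigued mice in both comparisons, with log2 fold changes of -5.45 ± 0.75 (SE) in controls, -5.32 with the other 5 sedentary controls, and -4.85 ± 0.74 in PBMT-treated mice. Of the 5 markers it alone was called lower. Over all genes 9.49% were called lower in controls, and 12.7% with the other 5 and in PBMT-treated mice. By value 3 of the 5 were higher and 2 lower in controls, with a median log2 fold change of 0.01. In fatigued against sedentary PBMT-treated mice 14.1% of all genes were called higher. Csf1r and Adgre1 of 5 myeloid, Pecam1 of 3 endothelial and Cidec of 4 tested adipocyte markers were called higher there. By value 1 of the 5 myeloid markers, S100a8, and 1 of the 3 endothelial markers were lower. The calls of Adgre1 and Cidec were lost without any 1 of 7 and 6 mice (adjusted p up to 0.174 and 0.151), and that of Cidec also with the GC correction (0.0623). Keratinocyte markers reached at most 11.4 CPM in a mouse, in sedentary PBMT-treated muscle, and none was abundant enough to test. Heart markers had group means of 2.94, 2.62, 3.00 and 2.40 CPM and single mice from 0.219 to 5.75 CPM, mostly Myh6, with Myl7 near 0. The part of these other cell types in the mitochondrial values below was not tested.

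Sedentary control replicate 4 stood apart from every other mouse, and values use all 6 sedentary controls unless the other 5 are named. Mitochondrial genes took 3.24% of its counts, against 15.5% to 17.0% in the other 5. The difference was uneven within the chromosome. The complex I mRNA mt-Nd4 was 12.1 times lower in that mouse than the mean of the other 5, at 892 against 10817 ± 229 CPM (SD, n = 5), and mt-Nd2 was 9.67 times lower. The rRNAs mt-Rnr1 and mt-Rnr2 were 2.17 and 1.94 times lower, and mt-Co2 1.94 times. In that mouse mt-Rnr2 made up 14.8% of its mitochondrial counts, and rRNA amounted to 51.2% of the counts of the 5 mRNAs mt-Nd1, mt-Nd2, mt-Nd5, mt-Nd6 and mt-Cytb. The other 23 mice had at most 28.2% for that ratio.

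The same mouse also differed in its nuclear genes by base composition. Its log2 difference from the other 5 sedentary controls, with 1 CPM added to each level, had a median of -0.39 over 891 nuclear genes with at most 40% GC, and of 0.45 over 601 genes above 60% GC. Between these ends the median was higher at each step of GC content, from -0.23 at 40% to 45% to 0.29 at 55% to 60%. Its Spearman correlation of log2 difference with GC was 0.603 over 15063 nuclear genes, and the other 23 mice, each set against its own group, lay from -0.399 to 0.213. The group of the other 5 sedentary controls holds replicate 4 itself, and outside that group the lowest value was -0.218. Mitochondrial mRNA genes have 31.9% to 41.1% GC, against a median of 49.7% in nuclear genes. Its summed muscle fiber markers were the highest of the sedentary controls at 128646 CPM. Among sedentary controls it also had the most of the non-coding RNA genes Gm23935, at 1722 CPM against a mean of 519 in the other 5, and CT010467.1, at 6124 against 3653 CPM, both chosen after their values were seen. CT010467.1 was higher still in a fatigued PBMT-treated mouse, at 11651 CPM. The part of base composition in its mitochondrial values was not tested.

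Mitochondrial genes took a smaller share of all counts in fatigued than in sedentary muscle, and PBMT-treated and control mice overlapped in share in both states. In sedentary control mice the share ran from 3.24% over a median of 16.2% to 17.0%, with a mean of 14.1% ± 5.33 (SD, n = 6), or 16.2% ± 0.532 over the 5 mice without replicate 4. Sedentary PBMT-treated mice ran from 13.8% over 16.0% to 17.1%, with a mean of 15.9% ± 1.09. The fatigued controls lay between 10.5% and 12.9% around a median of 11.2%, and the fatigued PBMT-treated mice between 10.7% and 12.1% around 11.5%. Except for replicate 4, every sedentary mouse was above every fatigued mouse of either treatment. The share differed by -2.61 ± 2.21 percentage points (SE) between fatigued and sedentary controls, and by -4.78 ± 0.458 with the other 5 sedentary controls. Between fatigued and sedentary PBMT-treated mice it differed by -4.41 ± 0.488 points, and these groups did not overlap. PBMT-treated minus control differences were 1.81 ± 2.22 points in sedentary mice, -0.353 ± 0.506 with the other 5 controls, and 0.00854 ± 0.437 in fatigued mice. No test was made on the share, which is a sum over genes tested singly below. In whole muscle, fewer cells rich in mitochondria and less mitochondrial RNA per cell cannot be told apart.

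**Figure D1:**
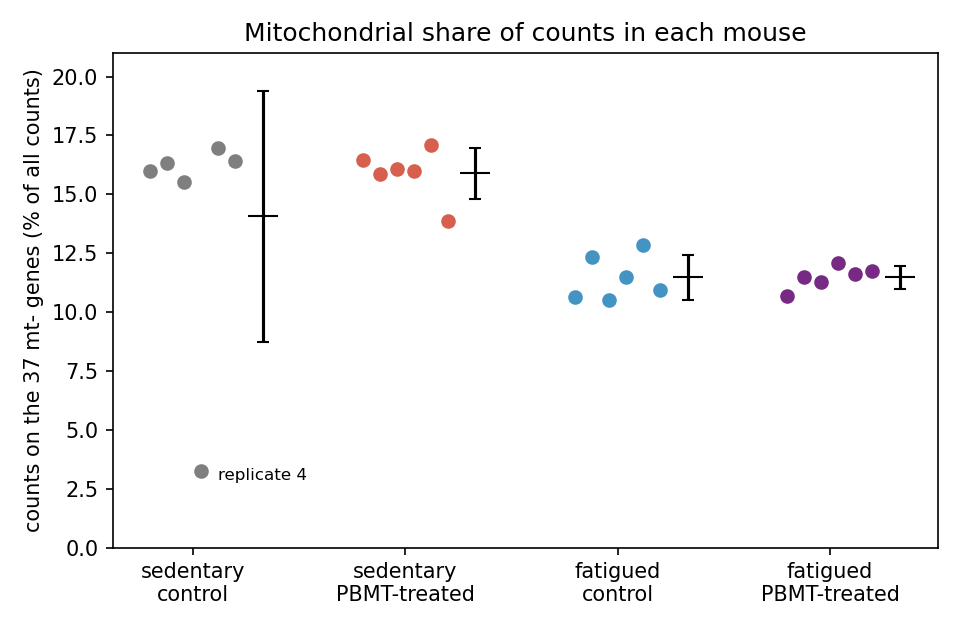
Counts on the 37 mitochondrial genes as a percentage of all counts, a dot per mouse, with the mean and SD of each group of 6 mice at its right. Sedentary control replicate 4 lies at 3.24%, and the means are 14.1%, 15.9%, 11.5% and 11.5% from left to right.

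Most of that share was mRNA, at 12.9% ± 5.06, 14.6% ± 1.02, 10.3% ± 0.724 and 10.4% ± 0.453 of all counts (SD, n = 6) in sedentary control, sedentary PBMT-treated, fatigued control and fatigued PBMT-treated mice. The mRNA share separated fatigued from sedentary PBMT-treated mice by -4.17 ± 0.455 points (SE) with no overlap, and fatigued from the other 5 sedentary controls by -4.64 ± 0.357 points, again with no overlap. With all 6 sedentary controls the mRNA share differed by -2.58 ± 2.09 points, and the control groups overlapped. rRNA took 1.16% ± 0.275, 1.30% ± 0.113, 1.14% ± 0.316 and 1.05% ± 0.0537 of counts in the same order of groups. In the other 5 sedentary controls rRNA took 1.27% ± 0.0958. For rRNA the control groups overlapped with or without replicate 4, differing by -0.0268 ± 0.171 and -0.133 ± 0.136 points, while the PBMT-treated groups did not, differing by -0.244 ± 0.0510 points. tRNA genes together took 0.00274%, 0.00310%, 0.00234% and 0.00210% of counts, and 0.00307% in the other 5 sedentary controls. Set against nuclear counts without the 10 most abundant nuclear genes, the mitochondrial counts came to 21%, 24.1%, 17.3% and 17.2%, with the same groups overlapping, and to 24.3% in the other 5 sedentary controls.

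Within the mitochondrial chromosome mt-Co1 and mt-Cytb led in all 4 groups, and genes below them changed places between groups. Values are means for sedentary control, sedentary PBMT-treated, fatigued control and fatigued PBMT-treated mice. mt-Co1, the catalytic subunit of cytochrome c oxidase, held 34.5%, 33.1%, 32.6% and 32.7% of mitochondrial counts. mt-Cytb, the only mitochondrially encoded subunit of complex III, held 18.04%, 18.4%, 18.4% and 18.5%. Of the complex I mRNAs, mt-Nd1 held 11.2%, 11.1%, 10.3% and 10.4% and mt-Nd5 10.1%, 11.4%, 10.9% and 11.0%. mt-Nd2 held 9.35%, 10.3%, 10.3% and 10.5%, and mt-Nd4 6.17%, 6.87%, 7.13% and 7.20%. The large-subunit rRNA mt-Rnr2 held 7.31%, 6.05%, 6.84% and 6.42%, and the small-subunit rRNA mt-Rnr1 2.42%, 2.13%, 2.96% and 2.77%. mt-Nd6, encoded on the opposite strand, held 0.513%, 0.381%, 0.374% and 0.353%. Replicate 4 enters only the first value of each set, and the other 5 sedentary controls had means of 33.5% for mt-Co1, 18.8% for mt-Cytb, 11.7% for mt-Nd1, 10.5% for mt-Nd5 and 10.2% for mt-Nd2. They had 6.85% for mt-Nd4, 5.81% for mt-Rnr2, 1.99% for mt-Rnr1 and 0.445% for mt-Nd6. The remaining 6 mRNAs, mt-Co2, mt-Co3, mt-Atp6, mt-Atp8, mt-Nd3 and mt-Nd4l, each held under 0.1%, and all 22 tRNAs together 0.0194% of the summed mitochondrial counts.

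Per kilobase of gene, mt-Co1 was the most abundant in sedentary controls at a mean of 29977 CPM per kb, followed by mt-Cytb at 22294 and mt-Nd1 at 16563 CPM per kb. mt-Nd2, mt-Nd5 and mt-Nd4 came next at 13223, 7877 and 6649 CPM per kb. mt-Rnr2 stood at 5354 and mt-Rnr1 at 3010.4 CPM per kb in these mRNA libraries, and mt-Nd6 at 1209.9 CPM per kb. Part of mt-Nd4 and mt-Co1 is also in copies on chromosome 1, and over only the 502 and 1062 bases outside them their counts came to 18253 and 43611 CPM per kb, which would place mt-Nd4 above mt-Nd1, so its place is uncertain. The other 6 mRNAs were all below mt-Nd6 per kilobase. They were mt-Nd3 at 151, mt-Co2 at 133, mt-Co3 at 121, mt-Nd4l at 116, mt-Atp6 at 106 and mt-Atp8 at 9.12 CPM per kb. In the other 5 sedentary controls mt-Co1, mt-Cytb and mt-Nd1 had 34333, 25945 and 19268 CPM per kb, and the order of the 15 genes was the same. Of these 6 genes, 5 have near-identical nuclear copies over their whole length or nearly so, and mt-Atp8 shares bases with its neighbor, so their levels count only the reads assigned to the mitochondrial gene.

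**Figure D2:**
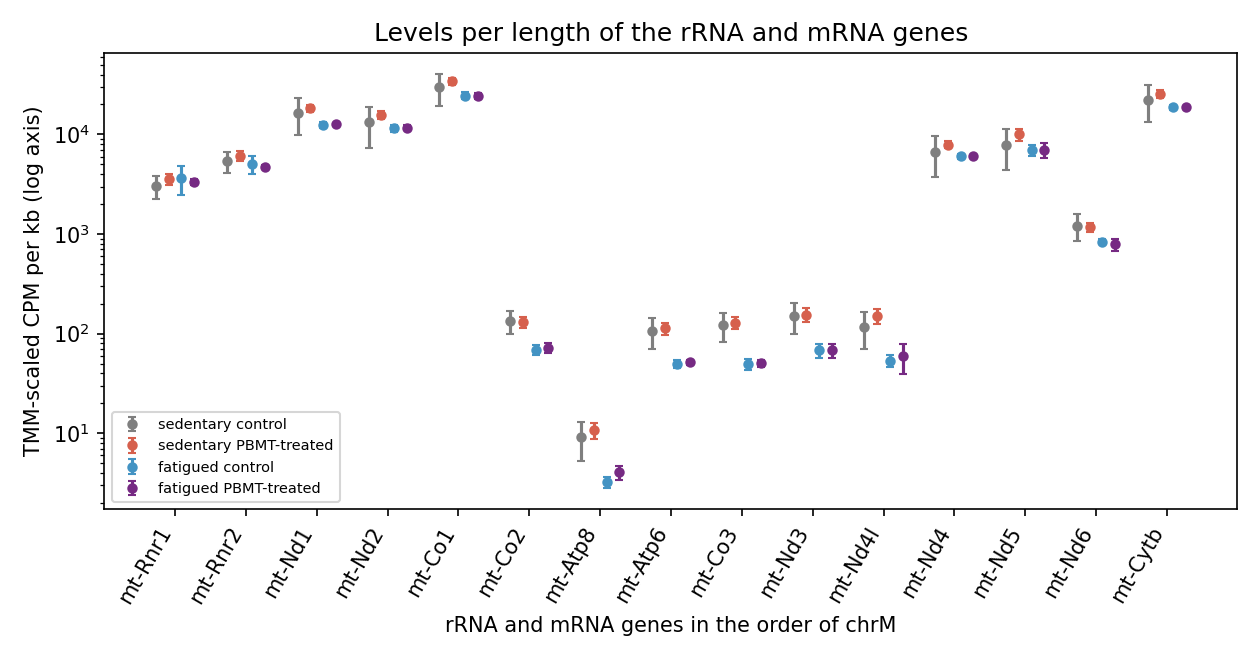
Level of each of the 15 rRNA and mRNA genes in TMM-scaled CPM per kb on a log axis, as mean ± SD over the 6 mice of each of the 4 groups, in the order of the chromosome. mt-Co1 is the highest and mt-Atp8 the lowest in all 4 groups.

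Fatigued control mice, compared with sedentary control mice to see which RNAs differed after exhaustive exercise, had lower mt-Co2, mt-Co3, mt-Atp6, mt-Atp8, mt-Nd3, mt-Nd4l and mt-Nd6 among the 13 mRNAs. The largest difference among them was in mt-Atp8, a subunit of ATP synthase, with a log2 fold change of -1.50 ± 0.27 (SE, 6 mice a group). Of these genes mt-Co2, mt-Co3, mt-Atp6, mt-Nd3 and mt-Nd4l have near-identical nuclear copies, described below. mt-Atp8 overlaps mt-Atp6 and had only 16 to 132 counts in a mouse. Values of the copied genes and of mt-Atp8 cover only the reads assigned to them, so their differences are uncertain in that respect. Neither rRNA was called without the GC correction taken up below, and among tRNAs mt-Tm was lower and mt-Te higher. With the other 5 sedentary controls all 13 mRNAs were called lower (12.7% of 15273 genes), and with the GC correction on the same mice 10 were, all but mt-Nd2, mt-Nd4 and mt-Nd5 (8.93% of genes).

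In numbers, 22 of the 37 genes had enough counts to test, and 8 of them were called lower, where 9.49% of 15108 genes were. Only mt-Te was called higher, where 9.1% of all genes were. The median log2 fold change of the 22 genes was -0.29, and over all genes tested it was -0.01. Without replicate 4, 16 mitochondrial genes were called lower (12.7% of 15273 genes) and again mt-Te higher (12% of genes), with a median of -0.48. By the range of single mice, mt-Tm was the only mitochondrial gene whose 6 fatigued controls all lay below all 6 sedentary controls, as 3.63% of genes did. Against the other 5 sedentary controls, 13 mitochondrial genes were lower with no overlap, including every mRNA except mt-Nd5, and 7.55% of all genes were.

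Fatigued PBMT-treated mice against sedentary PBMT-treated mice, the same question asked in treated animals, gave the same 7 mRNAs as lower. Here mt-Rnr2 and the tRNAs mt-Tm, mt-Tp and mt-Tw were lower as well, and no mitochondrial gene was called higher. The 11 genes called lower were among the 22 tested, with 12.7% of 15108 genes called lower and 14.1% higher over all. The median log2 fold change was -0.56 over the 22 genes and 0.00 over all genes. All 13 mRNAs, mt-Rnr2 and mt-Tp were lower in every fatigued than in every sedentary PBMT-treated mouse, a pattern seen in 5.2% of genes. A fit on these 2 groups alone called 17 of 20 mitochondrial genes lower, all 13 mRNAs among them, with 12.7% of 14325 genes lower. The fit on all 24 mice includes replicate 4 in the spread of each gene, and the part of this in the smaller number was not tested. The control and PBMT-treated comparisons share no mice but share that fit.

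**Figure D3:**
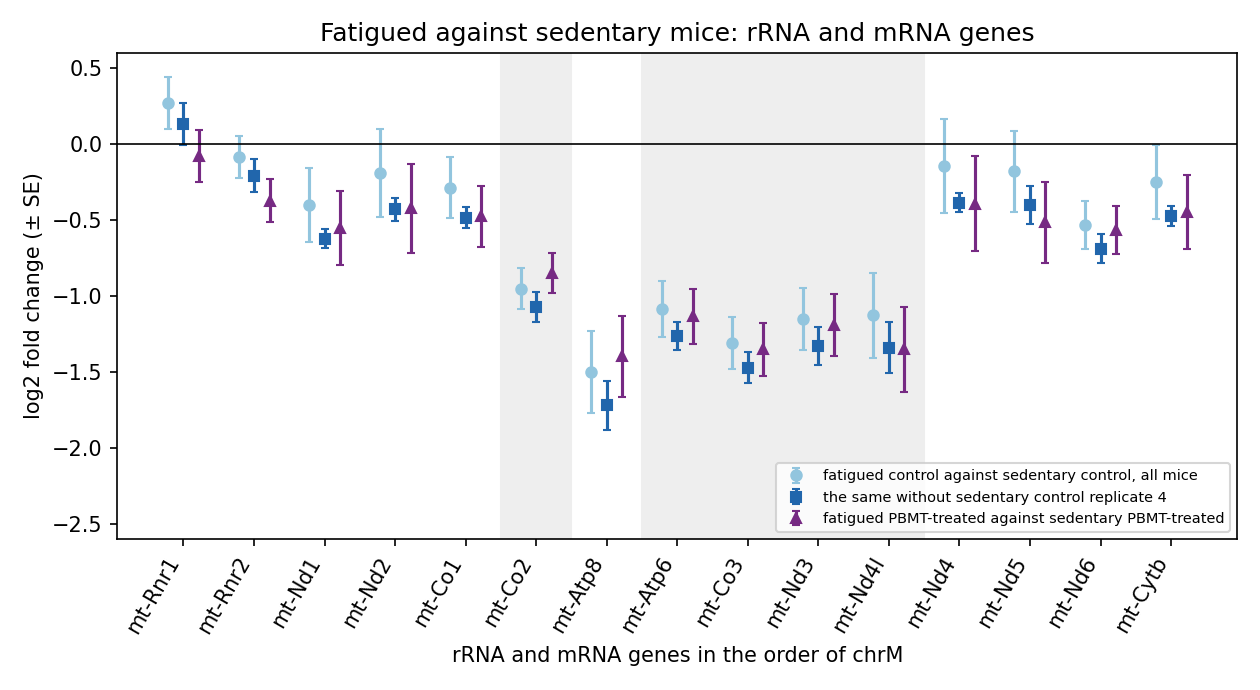
Log2 fold change ± SE of the 15 rRNA and mRNA genes, in the order of the chromosome, for fatigued against sedentary controls with all mice and without sedentary control replicate 4, and for fatigued against sedentary PBMT-treated mice. Grey bands mark mt-Co2, mt-Atp6, mt-Co3, mt-Nd3 and mt-Nd4l, the 5 mRNAs copied over nearly their whole length on chromosome 1. With mt-Atp8 these lie between -1.72 and -0.85. mt-Co1 and mt-Nd4, copied there only in part, have no band.

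Without the GC correction only mt-Rnr2 of the rRNAs was called, in PBMT-treated mice. mt-Rnr1, of the small ribosomal subunit, had a level of 1456 CPM in sedentary control replicate 4 and 2738 to 3510.2 CPM in the other 5 (median of the 6, 3110.2), and 3023 to 4135 CPM in sedentary PBMT-treated mice (median 3262). In fatigued mice it ran from 2490.4 over 3179 to 5631 CPM in controls, and from 2932 over 3179 to 3492 CPM in PBMT-treated mice. All 4 groups overlapped, and the highest value was fatigued control replicate 5. Its log2 fold change was 0.27 ± 0.17 (SE; adjusted p = 0.280) in controls, 0.13 ± 0.14 (adjusted p = 0.522) with the other 5 sedentary controls, and -0.08 ± 0.17 (adjusted p = 0.770) in PBMT-treated mice. Once corrected for GC, mt-Rnr1 was called higher in controls, with 0.49 (adjusted p = 0.0150), or 0.43 (adjusted p = 0.0361) with the other 5, and not in PBMT-treated mice (0.25, 0.194). mt-Rnr2, of the large subunit, had 4753 CPM in replicate 4, 8232 to 10370.4 CPM in the other 5 sedentary controls (median of the 6, 8890.4) and 8390.0 to 11442 CPM in sedentary PBMT-treated mice (median 9594). It had 6094 to 10905 CPM in fatigued controls (median 7846) and 6932 to 7922 CPM in fatigued PBMT-treated mice (median 7463). Fatigued PBMT-treated mice were all below the sedentary PBMT-treated mice, and the control groups overlapped. The log2 fold change of mt-Rnr2 was -0.37 ± 0.14 there (adjusted p = 0.0483), -0.08 ± 0.14 (adjusted p = 0.716) in controls and -0.21 ± 0.11 (adjusted p = 0.165) with the other 5 sedentary controls. That single rRNA call was lost when any 1 of 11 of the 12 mice was left out (adjusted p = 0.0539 to 0.129), and with the GC correction, where its log2 fold change was -0.04 (adjusted p = 0.848). In controls the correction turned mt-Rnr2 to 0.13 (adjusted p = 0.431), or 0.11 (adjusted p = 0.566) with the other 5.

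The ratio of the rRNAs separated the states more than their levels. mt-Rnr1 counts were 30.6% to 35.7% of mt-Rnr2 counts in sedentary controls (mean 33.7% ± 1.75, SD, or 34.3% ± 1.03 without replicate 4) and 33.3% to 36.6% in sedentary PBMT-treated mice (mean 35.2% ± 1.36). In fatigued mice the ratio was 40.4% to 51.6% in controls (mean 42.8% ± 4.37) and 40.04% to 47.1% in PBMT-treated mice (mean 43.1% ± 2.29). Every fatigued mouse was above every sedentary mouse, replicate 4 included, and the treatments overlapped within each state. No test was made on this ratio.

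Complex I, the entry point of electrons from NADH, takes 7 of the 13 mRNAs. mt-Nd1 had 2909.7 CPM in sedentary control replicate 4 and 17385 to 19636 CPM in the other 5 (median of the 6, 18284), with 15061 to 19158 CPM in sedentary PBMT-treated mice (median 17823). Its range was 11208 to 13484 CPM in fatigued controls (median 11908), and the fatigued PBMT-treated mice kept within 11941 to 12211 CPM (median 12043). Replicate 4 aside, all sedentary mice were above all fatigued mice. The log2 fold change was -0.40 ± 0.24 (SE; adjusted p = 0.263) in controls with all mice, -0.62 ± 0.06 (adjusted p = 2.89e-07) with the other 5, and -0.55 ± 0.24 (adjusted p = 0.0964) in PBMT-treated mice. Against the other 5 and with the GC correction it was -0.36 (adjusted p = 0.00305). In the fit on the PBMT-treated groups alone mt-Nd1 was called lower (adjusted p = 7.62e-05). For PBMT-treated mice the GC correction in the fit on all mice gave -0.28 (adjusted p = 0.306).

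Of mt-Nd2, mt-Nd4 and mt-Nd5, also of complex I, mt-Nd4 had 892 CPM in replicate 4 and 10469 to 11103 CPM in the other 5 sedentary controls (median of the 6, 10819.9), against 7802 to 9286 CPM in fatigued controls (median 8161). The PBMT-treated mice had 9168 to 12018 CPM when sedentary (median 11060.4) and 7910.3 to 8674 CPM when fatigued (median 8413). With all 6 sedentary controls none of the 3 was called, with log2 fold changes of -0.19 ± 0.29 (SE; adjusted p = 0.690) for mt-Nd2, -0.14 ± 0.31 (adjusted p = 0.786) for mt-Nd4 and -0.18 ± 0.27 (adjusted p = 0.685) for mt-Nd5. With the other 5 all were, mt-Nd2 with -0.43 ± 0.08 (adjusted p = 0.000235), mt-Nd4 with -0.39 ± 0.06 (adjusted p = 8.84e-05) and mt-Nd5 with -0.40 ± 0.13 (adjusted p = 0.0226). The GC correction on those mice ended all 3 calls, with -0.12 (adjusted p = 0.366), -0.08 (adjusted p = 0.588) and -0.12 (adjusted p = 0.525). With all 6 sedentary controls it turned the direction of all 3, to 0.09, 0.14 and 0.07 (adjusted p = 0.830, 0.755 and 0.861). mt-Nd5 was the most variable of them among the other 5 sedentary controls, from 11863 to 19693 CPM, and the only mRNA to overlap the fatigued controls, at 10895 to 15060.0 CPM, once replicate 4 was left out. In PBMT-treated mice the log2 fold changes were -0.42 ± 0.29, -0.39 ± 0.31 and -0.52 ± 0.27, uncalled in the fit on all mice (adjusted p = 0.299, 0.375 and 0.162) and called in that on the 2 groups (adjusted p = 0.00108, 0.00124 and 0.00613). With the GC correction in the fit on all mice they were -0.10, -0.06 and -0.24 (adjusted p = 0.795, 0.888 and 0.440).

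mt-Nd6 is the only mRNA of the opposite strand. It had 274 CPM in replicate 4, 625 to 848 CPM in the other 5 sedentary controls (median of the 6, 663) and 496 to 681 CPM in sedentary PBMT-treated mice (median 621). Fatigued mice had 392 to 470.1 CPM as controls (median 433) and 305 to 479 CPM as PBMT-treated mice (median 416), below all sedentary mice except replicate 4. The log2 fold change of mt-Nd6 was -0.53 ± 0.16 in controls (SE; adjusted p = 0.0206), -0.69 ± 0.10 with the other 5 sedentary controls (adjusted p = 1.66e-05) and -0.57 ± 0.16 in PBMT-treated mice (adjusted p = 0.00988). The control call was lost without sedentary control replicate 3 (adjusted p = 0.0800), in the fit on the 2 groups alone (0.0629) and with no filter on low counts (0.0730). mt-Nd6 with the GC correction was called in neither, with -0.28 (adjusted p = 0.114) in controls and -0.19 (adjusted p = 0.263) in PBMT-treated mice, and it was called with that correction and the other 5 sedentary controls, with -0.35 (adjusted p = 0.0413). The strand on which reads were counted is not stated in the sources used here, so reads of the opposite transcript cannot be told apart from this level or from those of the 8 tRNAs on the same strand.

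mt-Nd3 and mt-Nd4l, the remaining complex I subunits, were counted at far lower levels and fell further. mt-Nd3 had 18.3 CPM in replicate 4, 46.5 to 68.1 CPM in the other 5 sedentary controls (median of the 6, 58.9) and 43.2 to 66.3 CPM in sedentary PBMT-treated mice (median 52.6). It had 19.6 to 30.7 CPM in fatigued controls (median 23.0) and 17.2 to 26.9 CPM in fatigued PBMT-treated mice (median 24.9). Only replicate 4 brought the sedentary and fatigued groups together. Its log2 fold change was -1.15 ± 0.21 (SE; adjusted p = 0.000467) in controls, -1.33 ± 0.13 (adjusted p = 1.88e-07) with the other 5 sedentary controls, and -1.19 ± 0.21 (adjusted p = 0.000188) in PBMT-treated mice, where the GC correction brought it to -0.79 (adjusted p = 0.000739). For mt-Nd4l the levels were 7.38 CPM in replicate 4, 35.3 to 44.6 CPM in the other 5 sedentary controls (median of the 6, 38.6) and 33.9 to 56.1 CPM in sedentary PBMT-treated mice (median 44.8). They were 13.1 to 18.3 CPM in fatigued controls (median 15.5) and 11.7 to 26.5 CPM in fatigued PBMT-treated mice (median 16.2), the latter group being the more scattered. The sedentary mice were again higher, and replicate 4 was below all fatigued mice. mt-Nd4l gave log2 fold changes of -1.13 ± 0.28 (SE; adjusted p = 0.00756) in controls, -1.34 ± 0.17 (adjusted p = 8.47e-06) with the other 5 sedentary controls, and -1.35 ± 0.28 (adjusted p = 0.00119) in PBMT-treated mice.

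Complex III holds a single mitochondrial subunit, cytochrome b. mt-Cytb had 4626 CPM in replicate 4, 28239 to 31564 CPM in the other 5 sedentary controls (median of the 6, 29186) and 24102 to 32566 CPM in sedentary PBMT-treated mice (median 29828). It had 19669 to 23245 CPM in fatigued controls (median 21616) and 20156 to 22253 CPM in fatigued PBMT-treated mice (median 21631). Replicate 4 lay under all fatigued mice and the other sedentary mice above them. The log2 fold change of mt-Cytb was -0.25 ± 0.24 (SE; adjusted p = 0.508) in controls, -0.47 ± 0.07 (adjusted p = 2.35e-05) with the other 5 sedentary controls, and -0.45 ± 0.24 (adjusted p = 0.184) in PBMT-treated mice, with a call in the fit on the PBMT-treated groups alone (adjusted p = 0.000842). It was -0.25 (adjusted p = 0.0363) with the GC correction and the other 5 sedentary controls. For PBMT-treated mice that correction in the fit on all mice gave -0.23 (adjusted p = 0.442).

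Cytochrome c oxidase, complex IV, has mt-Co1, mt-Co2 and mt-Co3 as its core. mt-Co1 had 12666 CPM in replicate 4, 49751 to 55744 CPM in the other 5 sedentary controls (median of the 6, 52761) and 44323 to 57988 CPM in sedentary PBMT-treated mice (median 53558). In the fatigued groups it had 33851 to 41237 CPM in fatigued controls (median 38069) and 34151 to 40953 CPM in fatigued PBMT-treated mice (median 37953). Fatigued mice were lower than all sedentary mice but replicate 4. Its log2 fold change was -0.29 ± 0.20 (SE; adjusted p = 0.337) in controls, -0.48 ± 0.07 (adjusted p = 3.16e-05) with the other 5 sedentary controls, and -0.48 ± 0.20 (adjusted p = 0.0790) in PBMT-treated mice, and the fit on the PBMT-treated groups alone called it lower (adjusted p = 0.000712). With the other 5 sedentary controls the GC correction gave mt-Co1 -0.28 (adjusted p = 0.0197). For PBMT-treated mice it gave -0.28 in the fit on all mice (adjusted p = 0.213). mt-Co2 had 51.1 CPM in replicate 4, 81.4 to 119 CPM in the other 5 sedentary controls (median of the 6, 94.6) and 70.8 to 101 CPM in sedentary PBMT-treated mice (median 89.7). It had 41.9 to 55.1 CPM in fatigued controls (median 46.4) and 43.7 to 56.3 CPM in fatigued PBMT-treated mice (median 47.3). Sedentary groups were higher and overlapped the fatigued ones only through replicate 4. mt-Co2 had a log2 fold change of -0.95 ± 0.13 (SE; adjusted p = 2.59e-05) in controls, -1.07 ± 0.10 (adjusted p = 1.12e-07) with the other 5 sedentary controls, and -0.85 ± 0.13 (adjusted p = 5.02e-05) in PBMT-treated mice. mt-Co3 had 38.9 CPM in replicate 4, 87.7 to 122 CPM in the other 5 sedentary controls (median of the 6, 104) and 76.7 to 114 CPM in sedentary PBMT-treated mice (median 104). Its fatigued levels were 33.3 to 45.4 CPM in fatigued controls (median 37.5) and 33.3 to 43.6 CPM in fatigued PBMT-treated mice (median 39.7). The same separation held, with replicate 4 inside the fatigued range. The log2 fold change of mt-Co3 was -1.31 ± 0.17 (SE; adjusted p = 1.59e-05) in controls, -1.47 ± 0.10 (adjusted p = 1.83e-09) with the other 5 sedentary controls, and -1.35 ± 0.17 (adjusted p = 5.01e-06) in PBMT-treated mice.

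ATP synthase has mt-Atp6 and mt-Atp8 in its membrane part. mt-Atp6 had 25.8 CPM in replicate 4, 64.6 to 94.6 CPM in the other 5 sedentary controls (median of the 6, 81.8) and 59.6 to 86.8 CPM in sedentary PBMT-treated mice (median 78.4). It had 30.3 to 38.9 CPM in fatigued controls (median 33.3) and 32.0 to 37.8 CPM in fatigued PBMT-treated mice (median 34.8). Replicate 4 was below every fatigued mouse, and the other sedentary mice were above all of them. mt-Atp6 had a log2 fold change of -1.09 ± 0.18 (SE; adjusted p = 0.000237) in controls, -1.26 ± 0.09 (adjusted p = 1.95e-09) with the other 5 sedentary controls, and -1.13 ± 0.18 (adjusted p = 8.37e-05) in PBMT-treated mice. mt-Atp8, the lowest mRNA, had 0.351 CPM in replicate 4, 1.70 to 2.60 CPM in the other 5 sedentary controls (median of the 6, 2.12) and 1.499 to 2.697 CPM in sedentary PBMT-treated mice (median 2.23). Its level was 0.569 to 0.775 CPM in fatigued controls (median 0.645) and 0.663 to 1.02 CPM in fatigued PBMT-treated mice (median 0.819). Replicate 4 was once more the lowest of all mice and the other sedentary mice the highest. mt-Atp8 gave a log2 fold change of -1.50 ± 0.27 (SE; adjusted p = 0.000356) in controls, -1.72 ± 0.16 (adjusted p = 1.19e-07) with the other 5 sedentary controls, and -1.40 ± 0.27 (adjusted p = 0.000350) in PBMT-treated mice.

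Of the 22 tRNA genes, 9 had no count in any mouse and 17 had at most 24 counts in every mouse. Reads of 150 bases are longer than these genes, so mature tRNAs and longer precursors cannot be told apart. The 7 tested in the fit on all mice were mt-Te, mt-Tm, mt-Tp, mt-Tq, mt-Tt, mt-Tw and mt-Ty, which carry glutamate, methionine, proline, glutamine, threonine, tryptophan and tyrosine. mt-Tw had the highest level, with 4.96 to 18.04 CPM (median 14) in sedentary control, 12.1 to 20.6 CPM (median 16.7) in sedentary PBMT-treated, 8.41 to 12.6 CPM (median 10.7) in fatigued control and 8.47 to 13.5 CPM (median 11.1) in fatigued PBMT-treated mice. It was lower in fatigued than sedentary PBMT-treated mice (log2 fold change -0.61 ± 0.20, SE; adjusted p = 0.0259), although the groups overlapped, and this was lost without any 1 of 5 mice (adjusted p = 0.0559 to 0.0723). In controls mt-Tw had -0.30 ± 0.20 (adjusted p = 0.305), or -0.47 ± 0.14 (adjusted p = 0.0152) with the other 5 sedentary controls. The GC correction ended its call in PBMT-treated mice (-0.43, adjusted p = 0.0601) and that with the other 5 sedentary controls (-0.28, adjusted p = 0.157). mt-Tm had 0.154 to 0.362 CPM (median 0.313), 0.0740 to 0.388 CPM (median 0.285), 0 to 0.131 CPM (median 0.0597) and 0.0173 to 0.123 CPM (median 0.0349) in the same order of groups. Its log2 fold change was -2.15 ± 0.52 (SE; adjusted p = 0.00494) in controls, -2.28 ± 0.53 (adjusted p = 0.00276) with the other 5 sedentary controls, and -2.19 ± 0.53 (adjusted p = 0.00344) in PBMT-treated mice, at levels under 1 CPM. Sedentary and fatigued controls were apart for mt-Tm even with replicate 4, and PBMT-treated groups overlapped.

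mt-Te went the other way in controls. It had 0.0439 to 0.715 CPM (median 0.585) in sedentary and 0.826 to 1.95 CPM (median 0.992) in fatigued controls, which did not overlap, and 0.487 to 0.923 CPM (median 0.718) and 0.568 to 1.39 CPM (median 0.920) in sedentary and fatigued PBMT-treated mice, which did. The log2 fold change of mt-Te was 1.17 ± 0.34 (SE; adjusted p = 0.0171) in controls, 0.92 ± 0.26 (adjusted p = 0.00990) with the other 5 sedentary controls, and 0.44 ± 0.33 (adjusted p = 0.347) in PBMT-treated mice. Without fatigued control replicate 6 the call in controls was lost (adjusted p = 0.0586). With the GC correction mt-Te had 0.80 in PBMT-treated mice (adjusted p = 0.0508), just short of a call. mt-Tp had 3.01 to 10.1 CPM (median 7.02), 5.75 to 8.77 CPM (median 7.71), 3.37 to 6.88 CPM (median 4.68) and 1.93 to 5.03 CPM (median 4.42) in sedentary control, sedentary PBMT-treated, fatigued control and fatigued PBMT-treated mice. Its fatigued PBMT-treated mice were all below the sedentary PBMT-treated ones, and the controls overlapped. mt-Tp had a log2 fold change of -0.55 ± 0.23 (SE; adjusted p = 0.0982) in controls, -0.71 ± 0.20 (adjusted p = 0.0132) with the other 5 sedentary controls, and -0.93 ± 0.23 (adjusted p = 0.00471) in PBMT-treated mice, and leaving out fatigued control replicate 4 also gave a call in controls (adjusted p = 0.0474). Without the GC correction mt-Tq, mt-Tt and mt-Ty were called in neither comparison, with log2 fold changes of 0.56 ± 0.25, -0.25 ± 0.24 and 0.03 ± 0.36 in controls and 0.03 ± 0.25, -0.58 ± 0.24 and 0.42 ± 0.37 in PBMT-treated mice. With it mt-Tq was called higher in controls, with 0.78 (adjusted p = 0.0135), or 0.64 (adjusted p = 0.0229) with the other 5. For mt-Tt the PBMT-treated comparison passed without sedentary PBMT-treated replicate 2 (adjusted p = 0.0328) and in the fit on the 2 groups alone (0.0328). mt-Te, mt-Tp, mt-Tq and mt-Ty lie on the same strand as mt-Nd6.

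The 5 mRNAs that fell most besides mt-Atp8 share their sequence with the nuclear genome. A stretch of chromosome 1 (GRCm38, chr1:24611535-24616197, 4663 bases, minus strand) carries 7 annotated pseudogenes that copy consecutive mitochondrial genes. By alignment of transcript sequences, Gm28661 covers 99.6% of mt-Co2, Gm10925 99.6% of mt-Atp6, Gm28437 99.9% of mt-Co3 and Gm10222 99.0% of mt-Nd4l, all with 0 mismatches, and Gm28438 covers 99.1% of mt-Nd3 with 1 mismatch. Gm28439 covers 63.6% of mt-Nd4 with 0 mismatches, and Gm29216 covers 31.3% of mt-Co1 with 1. mt-Nd1, mt-Nd2, mt-Nd5, mt-Nd6, mt-Cytb and the rRNAs have no copy there. mt-Atp8 has no annotated copy, although 233 bases of chromosome 1 lie unannotated between the copies of its neighbors, and that stretch was not compared. A read from a stretch without a mismatch fits both places equally well, and how such reads were assigned is not stated in the sources used here, so levels and fold changes of these genes are uncertain in that respect.

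The single mismatches of mt-Nd3 and mt-Co1 to their copies both lie near an end of the copied stretch, so nearly all of it cannot tell the gene from the copy, and the bases around them are shown for that reason. The sequences are from GENCODE transcripts on GRCm38, written from the 5′ end, with the mismatched base in capitals. mt-Nd3 is shown at chrM:9459-9501, plus strand, with Gm28438 at chr1:24613077-24613119, minus strand. mt-Co1 is shown at chrM:6390-6433, plus strand, with Gm29216 at chr1:24616145-24616188, minus strand.
mt-Nd3: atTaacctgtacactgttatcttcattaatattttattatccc
Gm28438: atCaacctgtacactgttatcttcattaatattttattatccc
mt-Co1: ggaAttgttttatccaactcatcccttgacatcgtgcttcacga
Gm29216: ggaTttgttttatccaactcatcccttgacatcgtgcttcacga

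mt-Atp8 and mt-Atp6 overlap by 43 bases on their shared transcript, so a read there belongs to both genes, and mt-Nd4l and mt-Nd4 overlap by 7. The end of mt-Atp8 (chrM:7907-7969, plus strand) and the start of mt-Atp6 (chrM:7927-7989, plus strand) on GRCm38 are shown to place it, with the shared bases in capitals. How a read in both genes was counted is not stated in the sources used here.
mt-Atp8: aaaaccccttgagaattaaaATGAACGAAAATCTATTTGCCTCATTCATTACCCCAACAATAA
mt-Atp6: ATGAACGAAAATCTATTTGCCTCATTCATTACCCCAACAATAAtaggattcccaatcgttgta

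Counts on the copies were not small. Gm10925 had 8.05 times the CPM of mt-Atp6, as the median over the 24 mice, Gm28661 had 4.13 times that of mt-Co2 and Gm28437 had 3.98 times that of mt-Co3. The other 4 had less than their genes, with ratios of 0.232 for Gm10222 to mt-Nd4l and 0.106 for Gm28438 to mt-Nd3, and of 0.00632 for Gm29216 to mt-Co1 and 0.00386 for Gm28439 to mt-Nd4, which copy only part of their genes. All 7 copies together took 0.182%, 0.182%, 0.0839% and 0.0879% of all counts in sedentary control, sedentary PBMT-treated, fatigued control and fatigued PBMT-treated mice, and 0.203% in the other 5 sedentary controls. Gm10925 ran from 184 over 645 to 693 CPM in sedentary controls, 461 over 629 to 685 in sedentary PBMT-treated, 244 over 279.6 to 331 in fatigued control and 257 over 283 to 360.0 in fatigued PBMT-treated mice. Means of the copies were higher in sedentary than in fatigued mice, and replicate 4 was the lowest sedentary mouse for Gm10925. The partial copies differed more than their genes. In controls Gm29216 had a log2 fold change of -1.15 against -0.29 for mt-Co1, and Gm28439 -0.66 against -0.14 for mt-Nd4. With the other 5 sedentary controls these were -1.31 against -0.48 and -0.85 against -0.39. In PBMT-treated mice they were -1.09 against -0.48 and -0.91 against -0.39. Gm10222 differed less than mt-Nd4l in controls, with -0.63 against -1.13. In controls 6 of 7 copies were lower (9.49% of genes), all but Gm10222 (log2 fold change -0.63 ± 0.27, SE; adjusted p = 0.103), and their median log2 fold change was -0.97. Against the other 5 sedentary controls 7 of 7 were lower (12.7% of genes), Gm10222 with -0.86 ± 0.13 (adjusted p = 3.18e-05). Gm28439, called with -0.66 ± 0.20 (adjusted p = 0.0231), lost its call without any 1 of 5 mice (adjusted p = 0.0502 to 0.0616), and with the GC correction (-0.39, 0.0636; with the other 5 from -0.85 ± 0.10 to -0.51, 0.00212). In PBMT-treated mice 7 of 7 were lower (12.7% of genes), with a median of -1.02, and the GC correction brought Gm28439 from -0.91 ± 0.20 to -0.56 and Gm28438 from -1.10 ± 0.23 to -0.72.

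Adding each copy to its gene gives a level that a choice between the 2 places does not alter. Leaving such reads uncounted would alter it, and no test was made on the sums. mt-Co2 with Gm28661 had 472 ± 115 CPM (SD, n = 6) in sedentary control, 455 ± 63.8 in sedentary PBMT-treated, 242 ± 27.0 in fatigued control and 251 ± 27.6 in fatigued PBMT-treated mice. mt-Atp6 with Gm10925 had 637 ± 219.5, 680.1 ± 93.1, 315 ± 36.1 and 332 ± 46.1 CPM, and mt-Co3 with Gm28437 had 464 ± 145, 478 ± 69.7, 198 ± 25.8 and 204 ± 25.9 CPM. The other 5 sedentary controls had 511 ± 74.1, 722 ± 74.8 and 516 ± 76.2 CPM for these sums. In the same order of groups, mt-Co1 with its copy had means of 46718, 53078, 38172 and 38052 CPM, and mt-Nd4 had 9205, 10975, 8322 and 8355. mt-Nd3 with its copy had 57.7, 60.0, 26.4 and 26.4 CPM, and mt-Nd4l had 41.7, 54.3, 20.4 and 22.4. With the other 5 sedentary controls these sums were 53493, 10865, 65.3 and 48.3 CPM. The summed level of mt-Co2 and its copy was 691 CPM per kb in sedentary controls, or 747 with the other 5. Without its copy mt-Co1, whose mRNA encodes a subunit of the same complex, had 29977, or 34333 with the other 5. The 5 copied mRNAs came to 0.592% ± 0.292 (SD) of the counts of the 5 mRNAs with no copy on chromosome 1 (mt-Nd1, mt-Nd2, mt-Nd5, mt-Nd6 and mt-Cytb) in sedentary controls, where replicate 4 had 1.17% and the other 5 mice 0.477% ± 0.0835, and to 0.445% ± 0.0536 in sedentary PBMT-treated mice. They came to 0.272% ± 0.0209 in fatigued control and 0.280% ± 0.0257 in fatigued PBMT-treated mice, below every sedentary mouse. The median log2 fold change of the 5 copied mRNAs was -1.13 in controls and -1.19 in PBMT-treated mice, against -0.25 and -0.52 for those 5 without a copy there, of which only mt-Nd6 was called. Without replicate 4 these medians in controls were -1.33 and -0.47.

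Matches of at least 100 bases at 90% identity were found in 17 nuclear genes. On chromosome 2, Gm13340 matches all of mt-Co1 at 97.6% identity, Gm13341 matches mt-Co2 at 95.9% and Gm13339 matches part of mt-Nd2 at 96.7%. Elsewhere Gm4076 matches part of mt-Nd5 at 95.2% and Gm11407 at 92.4%, Gm11408 matches all of mt-Nd6 at 93.6% and Gm11410 matches mt-Cytb at 92.9%, and mt-Nd1 and the rRNAs had no match in that search. Chosen after their values were seen, the 3 genes on chromosome 2 also had lower means in fatigued than in sedentary mice. Gm13340 had 195, 199, 82.5 and 87.9 CPM in sedentary control, sedentary PBMT-treated, fatigued control and fatigued PBMT-treated mice, Gm13341 had 82.2, 76.0, 33.6 and 35.3 CPM, and Gm13339 had 8.58, 9.67, 4.94 and 5.00 CPM. Their means in the other 5 sedentary controls were 212, 88.6 and 9.81 CPM.

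Since base composition moved with replicate 4, the comparisons were also run with a correction of each library for the GC content of its genes, chosen after the data were seen. Over nuclear genes the Spearman correlation of log2 fold change with GC was 0.188 for fatigued against sedentary controls and 0.314 for PBMT-treated mice. For sedentary PBMT-treated against sedentary control mice, replicate 4 included, it was -0.304. With the correction 7 mitochondrial genes were called lower in controls (9.58% of 15108 genes) and mt-Rnr1, mt-Tq and mt-Te higher (8.24% of genes). mt-Te had 1.43 (adjusted p = 0.00179). In PBMT-treated mice 8 were called lower (13.2% of genes) and none higher. The copied mRNAs kept their calls in both comparisons, with median log2 fold changes of -0.87 and -0.82, and so did mt-Atp8 with -1.17 (adjusted p = 0.000298) and -0.98 (adjusted p = 0.00100). With all 6 sedentary controls none of the 5 mRNAs without a copy on chromosome 1 was called, with medians of -0.05 in controls and -0.23 in PBMT-treated mice. mt-Nd6 lost its call in both, as did mt-Rnr2 and mt-Tw in PBMT-treated mice and, among the copies, Gm28439 in controls. With the correction and the other 5 sedentary controls, 12 mitochondrial genes were called lower (8.93% of 15273 genes), and mt-Rnr1 (0.43), mt-Tq (0.64) and mt-Te (1.24) higher (8.52% of genes). Of the mRNAs without a copy on chromosome 1, mt-Nd1, mt-Cytb and mt-Nd6 were then called lower, and mt-Nd2 and mt-Nd5 were not. The 12 also held mt-Co1, mt-Tp (-0.65, adjusted p = 0.0363), mt-Tm, mt-Atp8 and the 5 copied mRNAs, and mt-Nd4 was not among them. The medians were -0.97 for the copied mRNAs and -0.25 for those without a copy on chromosome 1. How much of the difference in these mRNAs went with base composition was not tested further.

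PBMT-treated and control mice were compared within each state to see whether PBMT altered these RNAs, and no mitochondrial gene was called in either. Each fatigued mouse ran until its own exhaustion and the time run is not in the labels of single mice, so in the fatigued comparison light and time run cannot be told apart. In sedentary mice mt-Nd1 had a mean of 17690.1 ± 1440.2 CPM (SD, n = 6) with PBMT and 15851 ± 6383 CPM in controls, or 18439 ± 827 CPM in the 5 other than replicate 4. mt-Co1 had 52673 ± 4707 against 46315 ± 16605 CPM, or 53045 ± 2233 CPM in those 5. For both genes the mean with PBMT was above that of all 6 controls and below that of the 5. The sedentary comparison shares its controls with the fatigued against sedentary control comparison, and the fatigued PBMT-treated mice likewise serve in 2 comparisons.

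In sedentary mice 0 of 21 mitochondrial genes tested passed with edgeR, where 4 of 14177 genes or 0.0282% did, and 0 mitochondrial genes had an unadjusted p under 0.05, where 1082 genes did. DESeq2 called 60 genes and 0 mitochondrial ones. By value 17 of the 21 were higher with PBMT, and their median log2 difference was 0.19, while over all genes it was 0.00. After the GC correction 16 were higher and the median was 0.13, or 8 and -0.02 with the other 5 controls, and none was called. Without the correction and with the other 5 controls the median was -0.01, 10 of 21 were higher, and again none was called, where 0.126% of 14273 genes were. A replicate block, with all controls and no correction, gave 19 of 21 higher, a median of 0.30 and no call. No mitochondrial gene separated the sedentary groups by range, while 0.48% of genes did. The single values ran from -0.15 ± 0.36 (SE) for mt-Tm to 0.46 ± 0.36 for mt-Te with all controls, and from -0.28 ± 0.36 for mt-Tm to 0.22 ± 0.21 for mt-Te with the other 5. Among the rRNA and mRNA genes mt-Nd4l had the highest value, 0.37 ± 0.32 (adjusted p = 0.753), and mt-Nd6 the lowest, -0.05 ± 0.19 (adjusted p = 0.959). Against the other 5, mt-Nd4l had 0.16 ± 0.11 (adjusted p = 0.675) and mt-Nd6 -0.20 ± 0.09 (adjusted p = 0.508). The 7 copies on chromosome 1 were also uncalled, with medians of 0.10 with all controls and -0.09 with the other 5.

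Fatigued PBMT-treated and control mice were close for most of the 21 genes tested. mt-Cytb had 21440.3 ± 741 CPM (SD, n = 6) with PBMT and 21418 ± 1359.9 CPM in controls, a log2 fold change of 0.00 ± 0.06 (SE). mt-Co1 had 37862 ± 2423 and 37991 ± 2777 CPM, and mt-Nd1 had 12067 ± 101 and 11999 ± 828 CPM. mt-Atp8 had the highest value among rRNA and mRNA genes, 0.33 ± 0.18, and mt-Rnr1 the lowest, -0.11 ± 0.16, both with an adjusted p of 1.000. In edgeR 0 of 14574 genes were called, or 0%, and so 0 of 21 mitochondrial genes. At an unadjusted p under 0.05 there were 230 genes, of which 1, the tRNA mt-Tq, was mitochondrial (log2 fold change -0.59 ± 0.18; adjusted p = 1.000), and DESeq2 called 2 genes and 0 mitochondrial ones. The median of the 21 genes was 0.01, and over all genes it was 0.00. The groups overlapped for every mitochondrial gene, and 0.0274% of all genes were apart. Among the copies 0 of 7 were called, with a median of 0.05.

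The coefficient of variation of the CPM of mt-Nd1 was 0.834% in fatigued PBMT-treated mice, against 6.90% in fatigued controls and 8.14% in sedentary PBMT-treated mice. As a share of mitochondrial counts it was 4.68%, 4.18% and 2.95%, the fatigued PBMT-treated mice being the most variable of the 3 groups. For mt-Rnr1 the coefficient of variation of CPM was 6.85% with PBMT and 31.8% in fatigued controls, which include replicate 5 with 5631 CPM. By CPM 5 of the 15 rRNA and mRNA genes varied more with PBMT than in fatigued controls: mt-Nd4l (32.7% and 14.1%), mt-Nd5 (16.4% and 11.9%), mt-Nd6 (14.1% and 5.93%), mt-Atp8 (15.6% and 13.1%) and mt-Co2 (11.4% and 10.7%). By share of mitochondrial counts 10 of the 15 did, all but the rRNAs, mt-Co3, mt-Atp6 and mt-Atp8, among them mt-Nd2 (5.85% and 3.72%) and mt-Cytb (1.71% and 1.01%), and mt-Atp8 turned (11.9% and 14.6%). No test was made on the spread.

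Whether the PBMT effect differed between states was tested as the fatigued effect minus the sedentary effect, which takes each effect within its own project. No mitochondrial gene differed, 0 of 22 in edgeR, where 1 of 15108 genes or 0.00662% did. At an unadjusted p under 0.05 there were 665 genes and 0 mitochondrial ones, and DESeq2 called 1 gene and 0 mitochondrial ones. The median difference was -0.21 over the 22 genes and 0.02 over all genes, and 0.00 over the 22 with the other 5 sedentary controls. mt-Rnr1 had -0.35 ± 0.24 (SE; adjusted p = 0.946) and mt-Nd5 -0.34 ± 0.38 (adjusted p = 0.946), the lowest among rRNA and mRNA genes. Without replicate 4 these were -0.22 ± 0.19 and -0.12 ± 0.18. This comparison shares its mice with all the others.

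Nuclear genes that serve these RNAs were looked at as lists. Each was read against the all-gene medians of -0.01 for fatigued against sedentary controls and 0.00 for PBMT-treated mice. Each was also read against the shares of genes called lower or higher given above. No member of any list was called between PBMT-treated and control mice in either state, or in the difference of the PBMT effects. By value, most nuclear subunits of complexes I, III and IV and of ATP synthase were lower with PBMT. In sedentary mice 33 of 36, 9 of 9, 15 of 15 and 15 of 16 were, with medians of -0.14, -0.17, -0.12 and -0.16. In fatigued mice 33, 8, 13 and 15 were, with medians of -0.04, -0.06, -0.04 and -0.05. No test was made on these signs. Of 20 genes for transcription and upkeep of mitochondrial DNA, 6 were lower and Polg, the DNA polymerase, higher in fatigued controls, and 7 were lower in fatigued PBMT-treated mice, with medians of -0.19 in controls and -0.16 in PBMT-treated mice. Tfam, which packages mitochondrial DNA and starts its transcription, had 42.3 ± 0.569 CPM in fatigued and 49.5 ± 2.88 CPM in sedentary controls (SD, n = 6), a log2 fold change of -0.23 ± 0.05 (SE; adjusted p = 0.00154). In PBMT-treated mice Tfam had -0.27 ± 0.05 (adjusted p = 0.000152). The elongation factor Tefm had -0.36 ± 0.08 (adjusted p = 0.00238) and -0.33 ± 0.08 (adjusted p = 0.00388). Without replicate 4, 8 of the 20 were lower, and Polg (0.31), the RNA polymerase Polrmt (0.33) and the topoisomerase Top1mt (0.23) higher. Over all genes 12.7% were then called lower and 12% higher, so 3 of 20 higher was near the latter share. Tfb2m and Ssbp1, among those lower, lost their calls with the GC correction in controls (adjusted p = 0.0774 and 0.0919, or 0.137 and 0.107 with the other 5) and in PBMT-treated mice (0.153 and 0.121). Ssbp1 and Mterf2 lost theirs in controls without any 1 of 2 and 2 mice (adjusted p up to 0.0648 and 0.0609). Polg was not called with the GC correction, and with the correction and the other 5 sedentary controls Tfam lost its call in controls (adjusted p = 0.0571). Polg, Polrmt and Top1mt were chosen after their values were seen.

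For RNA processing and decay 28 genes were tested, with medians of -0.14 in controls and -0.12 in PBMT-treated mice. In controls Fastkd2, Grsf1, Trnt1 and Fastk were lower, and in PBMT-treated mice 8 genes were lower and Rexo2, an oligoribonuclease, higher. Fastkd2, which supports ribosomal RNA in mitochondria, had -0.34 ± 0.07 (SE; adjusted p = 0.00201) in controls and -0.38 ± 0.07 (adjusted p = 0.000422) in PBMT-treated mice. Grsf1, a protein of RNA granules, had -0.22 ± 0.06 (adjusted p = 0.0163) and -0.31 ± 0.06 (adjusted p = 0.000697). In controls the calls of Grsf1, Trnt1 and Fastk were lost without any 1 of 2, 4 and 7 mice (adjusted p up to 0.0727, 0.0667 and 0.0876), and in PBMT-treated mice those of Rexo2 and Angel2, the latter lower, without any 1 of 4 and 10 (up to 0.0908 and 0.0915). The GC correction ended the call of Trnt1 in controls (adjusted p = 0.272, or 0.495 with the other 5) and in PBMT-treated mice (0.227), and there that of Angel2 (0.0557). With the other 5 sedentary controls 9 were lower and Elac2, the tRNA 3′ processing enzyme, higher (0.21), chosen after its value was seen. Of 13 translation factors Mtrf1, a release factor, and Guf1, an elongation factor, were lower in both comparisons and with the other 5 sedentary controls. Over all genes 9.49% were called lower in controls, and 12.7% in PBMT-treated mice and with the other 5. So 2 of 13 was near these shares. Mtrf1 had -0.24 ± 0.07 and -0.28 ± 0.07, and Guf1 -0.30 ± 0.09 and -0.30 ± 0.09, against list medians of -0.12 in controls and -0.04 in PBMT-treated mice. In controls Mtrf1 and Guf1 lost the call without any 1 of 2 and 4 mice (adjusted p up to 0.0711 and 0.0900), and Guf1 lost it in both with the GC correction (adjusted p = 0.265 and 0.865).

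Nuclear subunits of the complexes whose other subunits are mitochondrially encoded were lower in part in fatigued muscle. For complex I, 19 of 36 were lower in controls, 20 with the other 5 sedentary controls, and 9 in PBMT-treated mice, with medians of -0.23 in controls and -0.14 in PBMT-treated mice. Ndufb2 had 4.62 ± 0.0850 CPM in fatigued and 7.34 ± 1.30 CPM in sedentary controls (SD, n = 6), with log2 fold changes of -0.67 ± 0.10 (SE; adjusted p = 7.32e-05) and -0.62 ± 0.10 (adjusted p = 9.69e-05) in PBMT-treated mice. Ndufb11 had -0.53 ± 0.09 and -0.33 ± 0.09, and Ndufc1 lost its call in PBMT-treated mice with the GC correction (adjusted p = 0.0654). For complex III, 5 of 9 were lower in controls, namely Uqcr10, Uqcrq, Uqcrfs1, Uqcrh and Uqcrb, 6 with the other 5 sedentary controls, and all of the 5 but Uqcrh in PBMT-treated mice. The list medians were -0.33 in controls and -0.24 in PBMT-treated mice, and Uqcr10 had -0.53 ± 0.09 and -0.33 ± 0.09. The calls of Uqcrh and Uqcrb in controls were lost without any 1 of 2 and 3 mice (adjusted p up to 0.0783 and 0.117), and those of Uqcrb and Uqcrq in PBMT-treated mice without any 1 of 9 and 4 (up to 0.112 and 0.0694). Uqcrh also lost its call in controls with the GC correction and the other 5 sedentary controls (adjusted p = 0.0681). For complex IV, 11 of 15 were lower in controls, 11 with the other 5 sedentary controls, and 7 in PBMT-treated mice, with medians of -0.33 in controls and -0.25 in PBMT-treated mice. The muscle isoform Cox7a1 had -0.49 ± 0.09 and -0.35 ± 0.09, and Cox6c -0.40 ± 0.07 and -0.37 ± 0.07. The call of Cox7b in controls was lost without 1 mouse (adjusted p = 0.0636), and in PBMT-treated mice that of Cox8b without 1 mouse (0.0512), those of Ndufa4 and Cox6b1 without any 1 of 3 and 5 (up to 0.0616 and 0.0635) and that of Ndufa4 with the GC correction (0.200). For ATP synthase, 10 of 16 were lower in controls, 11 with the other 5 sedentary controls, and 7 in PBMT-treated mice, with medians of -0.30 in controls and -0.22 in PBMT-treated mice. Its small subunits Atp5l and Atp5mpl had -0.63 ± 0.09 and -0.51 ± 0.07 in controls, and -0.48 ± 0.09 and -0.47 ± 0.07 in PBMT-treated mice, where Atp5l lost its call with the GC correction (adjusted p = 0.0594). Among the 7, Atp5f1 lost its call without any 1 of 8 mice (adjusted p = 0.0638 to 0.105), and with the GC correction it turned direction, from -0.26 ± 0.09 to 0.037 (0.827). Atp5c1 lost its call in controls without any 1 of 2 mice (up to 0.0752). With that correction the nuclear subunits lower in controls and in PBMT-treated mice were 23 and 13 of complex I, 9 and 8 of complex IV, and 9 and 6 of ATP synthase, and Uqcrb lost its call in both (adjusted p = 0.113 and 0.397).

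Complex II, which has no mitochondrially encoded subunit, had Sdhd, Sdhb and Sdhc of its 4 genes lower in controls, also with the other 5 sedentary controls, and Sdhd in PBMT-treated mice, with medians of -0.28 in controls and -0.11 in PBMT-treated mice. Sdhd, a membrane anchor, had -0.37 ± 0.09 (SE; adjusted p = 0.00372) and -0.29 ± 0.09 (adjusted p = 0.0145). Sdhc lost its call in controls without any 1 of 9 mice (adjusted p = 0.0513 to 0.173), and with the GC correction (0.0526, or 0.0893 with the other 5). Of 13 genes of mitochondrial stress responses, Asns, which makes asparagine, was higher in controls with 0.90 ± 0.22 (adjusted p = 0.00548) and in PBMT-treated mice with 1.07 ± 0.22 (adjusted p = 0.000736). The transcription factor Atf4 was higher in PBMT-treated mice with 0.24 ± 0.09 (adjusted p = 0.0441), lost without any 1 of 8 mice (adjusted p = 0.0506 to 0.130). These were 1 of 13 genes in controls and 2 in PBMT-treated mice, near the shares of all genes called higher, 9.1% and 14.1%. The protease Lonp1 (0.23) and the transcription factor Atf5 (0.25), chosen after their values were seen, joined Asns with the other 5 sedentary controls. The median log2 fold changes of that list were 0.12 in controls and 0.12 in PBMT-treated mice. Of 14 fiber type genes, Myh4 and Tnnt3 of fast fibers were higher in both comparisons, Myh4 with 0.86 ± 0.17 and 0.65 ± 0.17. Over all genes 9.1% were called higher in controls and 14.1% in PBMT-treated mice, so 2 of 14 was near these shares. The slow light chain Myl3 was lower in controls with -0.75 ± 0.23 (adjusted p = 0.0283), where 9.49% of all genes were. Myl3 lost its call without any 1 of 9 mice (adjusted p = 0.0502 to 0.0613), replicate 4 among them, and with the other 5 sedentary controls Myh4, Tnnt3, Tnnc2 (0.29) and Tnni2 (0.25) were higher and Mb lower. The list medians were 0.12 in controls and 0.24 in PBMT-treated mice. With the GC correction Tnnt3 lost its call in PBMT-treated mice (adjusted p = 0.290), as did Atf4 (0.552). The part of fiber type in the mitochondrial values was not tested.

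Calls of several of these nuclear genes also rested on the fit. In controls, with the adjusted p in parentheses, no filter on low counts ended those of Fastk (0.0745), Grsf1 (0.0729), Guf1 (0.0530), Mtrf1 (0.105), Trnt1 (0.116), Sdhc (0.128) and Myl3 (0.0778). A fit on the 2 control groups alone ended those of Fastk (0.0942), Grsf1 (0.0505), Guf1 (0.0777), Mtrf1 (0.0795), Trnt1 (0.0757), Sdhc (0.0554), Ssbp1 (0.0520), Uqcrb (0.0724) and Ckm (0.0743). Sdhc lost its call also with the size factors of DESeq2 (0.0523), scaling on nuclear genes only (0.0533) and a replicate block (0.0547). In PBMT-treated mice no filter ended those of Rexo2 (0.133), Angel2 (0.0864), Uqcrb (0.0647), Atp5f1 (0.0538), Atf4 (0.0553), Adgre1 (0.112), Cidec (0.0725) and Dcn (0.0977), and the fit on the 2 groups alone those of Rexo2 (0.0581), Atp5f1 (0.0501), Adgre1 (0.0694), Cidec (0.0723) and Dcn (0.0519). The replicate block ended those of Rexo2 (0.0526), Angel2 (0.0598), Atf4 (0.0534), Adgre1 (0.0731) and Cidec (0.0908), and scaling on nuclear genes only that of Uqcrb (0.0502).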

How the data were processed

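The authors deposited gene counts for each of the 24 muscle samples, and the submitters' notes name Trimmomatic, STAR 2.7.1a, Picard 2.20.4, StringTie 2.0.4, featureCounts 1.6.0 and HTSeq with the GRCm38 genome, without saying how reads with several matches or on either strand were counted. Of 55487 gene identifiers, 55141 matched GENCODE M21, which gave symbols, positions and transcript sequences. Depth was 43271093 to 68726155 counts per mouse, so a gene with 1 CPM had at least 43 counts.

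Counts were tested with edgeR 4.0.16 in R 4.3.3, by its quasi-likelihood test with robust dispersions, TMM scaling, filterByExpr at a minimum count of 10 and Benjamini-Hochberg adjustment over all genes tested. PBMT-treated and control mice of a state were fitted on their own 12 mice, and the other comparisons on all 24. Shares, ratios and sums were described without a test. The alternatives were DESeq2 1.42.0, its size factors in the edgeR fit, scaling on nuclear genes only, no filter, a replicate block, other sets of mice in the fit, each mouse left out in turn and other definitions of the share. The code was tested on simulated data. A correction for GC content, with a loess trend per library (span 0.3) as an offset in which 16 tested genes without a GC value took the median, was chosen after the data were seen, as were its run without sedentary control replicate 4 and the genes CT010467.1 and Gm23935. Copies were found by aligning GENCODE transcripts.

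The genes followed through the alternatives were all 13 mRNA and 2 rRNA genes, the tRNA genes passing the filter in any comparison, the copies on chromosome 1 and, of each other list, the members called in any comparison, up to 6 a list and comparison by smallest p, and otherwise the member with the smallest p, and the text names a part of them. The members and lists were chosen with earlier results of these data known.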

Additional observations from a re-analysis of the deposited data

Results flagged for a closer look

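A value was noted as outlying where its gap to the next mouse was large for 6 mice by Dixon's ratio, which chance alone gives in about 1 of 20 groups. Of 100 group values tested, 16 were, and 12 of them belonged to sedentary control replicate 4, always as the lowest mouse of its group. They were its share of counts on mitochondrial genes (3.24%), on mitochondrial mRNA (2.61%) and on mitochondrial rRNA (0.629%), and its CPM of mt-Nd1 (2909.7), mt-Nd2 (1669), mt-Co1 (12666), mt-Nd4l (7.38), mt-Nd4 (892), mt-Cytb (4626), and the copies Gm10222 (1.14), Gm28439 (13.4) and Gm10925 (184). Sedentary PBMT-treated replicate 6 was lowest in its group for the mRNA share at 12.6% and for mt-Nd4 at 9168 CPM. Fatigued control replicate 5 was highest in its group for the rRNA share at 1.74% and for mt-Rnr1 at 5631 CPM. The cause of these values was not tested.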

How the results depend on the processing

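Genes called between sedentary PBMT-treated and control mice numbered 4, against 1 in the fit on all 24 mice, 60 with DESeq2, 16 with no filter, 16 with the GC correction chosen after seeing the data, 19 with that correction and without sedentary control replicate 4, and 11 with a replicate block. Between fatigued PBMT-treated and control mice they numbered 0, against 2 with DESeq2 and 1 with the replicate block. With the GC correction and without sedentary control replicate 4, also chosen after seeing the data, mitochondrial genes called between fatigued and sedentary controls numbered 15, against 9, and genes called for the difference of PBMT effects 2, against 1. Mitochondrial genes called between fatigued and sedentary PBMT-treated mice numbered 11, against 17 in the fit on the 2 groups alone. Under the replicate block only the calls of mt-Rnr2 (adjusted p = 0.0522) in PBMT-treated and Gm28439 (0.0570) in control mice changed among the mitochondrial genes and copies, and mice of the same number correlated at -0.12 to 0.11 in sedentary and -0.08 to 0.37 in fatigued muscle, 3 of 6 pairs of the latter being the best match. Leaving out each mouse gave 2 to 20 genes called and 0 to 0 mitochondrial ones between sedentary treatments, 0 to 0 and 0 to 0 between fatigued treatments, 2078 to 3770 and 8 to 17 between fatigued and sedentary controls, 3245 to 4078 and 9 to 12 between fatigued and sedentary PBMT-treated mice, and 1 to 3 and 0 to 0 for the difference of PBMT effects. The log2 ratio of the mitochondrial share was 0.17 (-0.03 to 0.24 with mice left out) and 0.00 (-0.02 to 0.04) for PBMT in sedentary and fatigued mice, -0.30 (-0.50 to -0.24) and -0.47 (-0.51 to -0.45) for fatigue in control and PBMT-treated mice, and -0.17 (-0.23 to 0.03) for the difference of PBMT effects. Calls were lost for mt-Rnr2 in PBMT-treated mice with no filter (adjusted p = 0.106), with the size factors of DESeq2 (0.0535) and with scaling on nuclear genes only (0.0563), and for mt-Tw with no filter (0.0767). Gm28439 in controls lost its call with no filter (adjusted p = 0.0736) and in the fit on the 2 groups alone (0.0795). With the GC correction Atp5f1, an ATP synthase subunit, turned direction in PBMT-treated mice, from a log2 fold change of -0.26 to 0.037 (adjusted p = 0.827), and Tfb2m and Ssbp1 lost their calls in controls (adjusted p = 0.0774 and 0.0919) and in PBMT-treated mice (0.153 and 0.121), and so did Trnt1 (0.272 and 0.227). Without sedentary control replicate 4 the GC correction gave adjusted p of 0.137 for Tfb2m, 0.107 for Ssbp1, 0.495 for Trnt1, 0.404 for Guf1 and 0.0619 for Uqcrb in controls. The cause of these differences was not tested.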
